A study of Homo sapiens with 9 samples.

Results

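The genes examined were 94 nuclear genes of oxidative phosphorylation. They are listed in the counts under the subunit names used for the respiratory chain and the ATP synthase. The counts cover 31558 genes in all, of which 17201 were protein-coding. The 94 were picked by name and not by a threshold on a measured value, but with earlier results of these data known. Grouped by name, they comprised 46 genes of complex I, namely 7 core subunits, 32 accessory subunits and 7 assembly factors. The others were 4 of complex II, 10 of complex III, 16 of complex IV and 18 of complex V. All samples were HCT116, a human colorectal carcinoma cell line, and polyadenylated RNA was sequenced from 3 biological replicates in each of 3 groups. The CRLM1-OE cells had been transfected with a plasmid carrying the long noncoding RNA CRLM1, the Anti cells with a plasmid carrying its antisense, and the Ctrl cells with the empty plasmid, so that all 9 samples carried a vector and none was untransfected. All groups come from 1 cell line. Although the comparison of CRLM1-OE with its controls is the question of the study, Anti and Ctrl were also compared with each other here, since a value that differs between 2 controls bears on any comparison with either.

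Oxidative phosphorylation is carried out in the inner mitochondrial membrane. Complex I takes electrons from NADH and complex II from succinate, ubiquinone carries them to complex III, cytochrome c carries them to complex IV, and complex IV passes them to oxygen, while the proton gradient that complexes I, III and IV build drives the ATP synthase, complex V. A small set of subunits is encoded by mitochondrial DNA, and the remaining subunits are encoded in the nucleus, translated in the cytosol and imported, so that each complex except complex II is assembled from the products of 2 genomes.

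Of the 94 members, 87 had at least 50 counts in every sample and 86 averaged at least 100 counts. Another 6 stayed under 10 counts in every sample, namely COX4I2, COX7A1, COX7B2, COX8C, UQCRHL and a second entry named NDUFA7, and the remaining member, ATP5EP2, had 0 to 10 counts. COX4I2, COX7A1, COX7B2 and COX8C are alternative isoforms of complex IV subunits known from lung, muscle and testis, and the housekeeping forms COX4I1, COX7A2, COX7B and COX8A stood at 295 ± 4, 163 ± 3.7, 21.8 ± 0.949 and 472 ± 11.5 FPKM (fragments scaled by exon length and library size, SD, n = 3) in Ctrl. Exon bases shared with another coding gene on the same strand were annotated for 20 members, including SDHA, COX6A1, COX6B2, UQCR11 and NDUFA11, and their counts may hold reads of that gene.

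Total counts per library ranged from 33302292 to 44514692. The CRLM1 transcript was counted 38704, 32751 and 35726 times in CRLM1-OE, 0 in each Ctrl sample, and 1951, 1777 and 1540 in the Anti samples, where the transfected strand is the opposite one and the strand setting of the counting is not given in the sources used here. The epithelial markers EPCAM, KRT8, KRT18, KRT19, CDH1, CLDN7, CDX1 and CDX2 summed to 4991 to 5124 FPKM in CRLM1-OE, 5645 to 5693 in Ctrl, with 4681 to 4738 in Anti, and CDX1 was below 1 FPKM in every sample. Within that list KRT18 was lower in CRLM1-OE, with log2 fold changes of -0.996 against Ctrl and -0.9998 against Anti, EPCAM was lower with -0.35 and -0.37, and KRT19 was lower in Anti than in Ctrl, with -0.58. Of the 8 markers, 4 were called lower and 0 higher in CRLM1-OE against Ctrl. Against Anti 4 were lower and 2 higher, namely KRT19 by 0.38 and CLDN7 by 0.29. The 7 markers of other cells summed to 5.64 to 5.97 FPKM in CRLM1-OE, above the 4.64 to 4.94 of Ctrl and the 4.27 to 4.79 of Anti. COL1A1, a fibroblast collagen, was higher in CRLM1-OE by 0.75 over Ctrl and by 0.70 over Anti, at 2.20, 1.20 and 1.31 FPKM in the 3 groups. CD68, a macrophage marker that is also found in epithelial lines, was higher in CRLM1-OE by 0.39 over Anti. DES went the other way, with -0.31 against Ctrl, at 1.67 FPKM in CRLM1-OE and 1.93 in Ctrl. COL1A2, the other collagen gene of the list, had a mean count of 0.11. The part of these differences in the members' values was not tested. PTPRC, PECAM1 and ALB, which mark leukocytes, endothelium and hepatocytes, stayed below 1 FPKM in each. In bulk RNA of this kind, fewer cells of a type and less RNA per cell cannot be told apart.

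In Ctrl the complexes were expressed at different levels per length, with a median of 28.2 FPKM over the genes of complex I, 32.3 for complex II, 71.5 for complex III, 70.8 for complex IV and 55.4 for complex V. The highest member of all was ATP5B, the catalytic beta subunit of the ATP synthase, at 520 ± 6.4 FPKM. It was followed by COX6A1 at 478 ± 7.51 FPKM and COX8A at 472 ± 11.5 FPKM, a difference within their spread, and then by UQCRH, the hinge protein of complex III, at 408 ± 7.23 FPKM. In complex I the highest level was that of the accessory subunit NDUFS5, at 178 ± 1.85 FPKM, and the lowest above 1 FPKM was that of NDUFA11, at 1.03 ± 0.118 FPKM. The lowest above 1 FPKM in complexes III, IV and V were UQCR11 at 6.73 ± 0.781 FPKM, COX7B at 21.8 ± 0.949 FPKM and ATP5O, a stalk subunit, at 14.3 FPKM. SDHB, the iron-sulfur subunit of complex II, stood at 92.3 ± 2.46 FPKM and SDHC, a membrane anchor of the same complex, at 6.63 ± 0.233 FPKM, although complex II holds a single copy of each. FPKM divides by the length of all annotated exons, so a gene with long annotated isoforms is given a lower value.

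**Figure D1:**
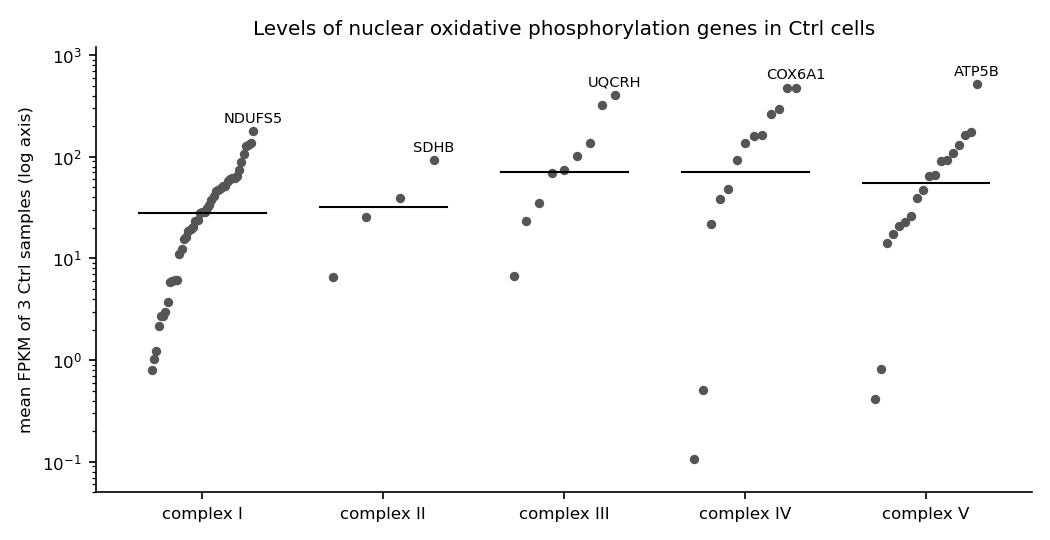
Mean FPKM of each nuclear gene of oxidative phosphorylation over the 3 Ctrl samples, on a log axis and sorted within its complex, with the median of all genes of the complex as a bar; genes under 0.05 FPKM are left out. The medians of complexes III, IV and V lie above that of complex I, and the labelled gene of each complex is its highest.

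Taken as a share of all counts, the 94 members made up 1.11%, 1.11% and 1.13% in the CRLM1-OE samples, 1.03%, 1.05% and 1.06% in Ctrl, and 1.01%, 1.00% and 0.992% in Anti. The 3 groups did not overlap on this scale, and CRLM1-OE was the highest. After scaling by the TMM factors of edgeR, which correct for the composition of the libraries, the summed CPM values (counts scaled by library size) of the members were 10635 ± 155 in CRLM1-OE, 11047 ± 152 in Ctrl, with 9969 ± 64.9 in Anti, so that Ctrl was the highest. Anti was the lowest on both scales, and the order of CRLM1-OE and Ctrl depended on the scaling. The TMM factors were 1.046 to 1.053 in CRLM1-OE, 0.945 to 0.955 in Ctrl, with 1.00 to 1.01 in Anti. Messenger RNA of the mitochondrial genome took 4.47% to 4.55% of the counts in CRLM1-OE, 4.93% to 5.03% in Ctrl, with 5.60% to 5.69% in Anti, the reverse order of CRLM1-OE and Ctrl from that of the nuclear members' share.

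Differential expression was tested with edgeR's quasi-likelihood F-test on the counts, with TMM factors and a Benjamini-Hochberg adjustment over all genes, and a member was said to rise or fall at an adjusted p of at most 0.05. All log2 fold changes come from these fits of 6 samples each, whereas the CPM values given per sample are scaled over all 9 samples together, which may differ by a few hundredths on the log2 scale. The 3 comparisons share samples, so their values are set side by side without a test between them.

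Between CRLM1-OE and Ctrl, the members moved little and in both directions: 22 rose, 30 fell and 42 were not called. Of all 29846 genes tested, 15.0% were called higher and 16.8% lower, and of the 11084 protein-coding genes averaging at least 100 counts, which are nearer to the members in level, 28.9% were called higher and 39.8% lower. Among the 86 members with that mean count, 21 rose and 30 fell, with a median log2 fold change of 0.01 and a range from -0.33 to 0.30, against a median of -0.05 over the protein-coding genes of that level. The median over all members was 0.02 and lay at -0.01 without CRLM1-OE replicate 3 and at -0.01 without Ctrl replicate 1. When an added change of at least 2-fold was asked for, 3.41% of all genes but 0 members passed.

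Between CRLM1-OE and Anti the balance was different, with 48 members higher, 11 lower and 35 not called. The backgrounds were 17.1% called higher and 18.5% lower among the 30183 genes tested, and 33.7% and 41.1% among the protein-coding genes averaging at least 100 counts. Among the 86 members at that level 47 rose and 11 fell, and 62 of the 86 had a positive value. Their median was 0.10, with a range from -0.68 to 0.51, where the protein-coding genes had a median of -0.04. At a change of at least 2-fold, 5.65% of all genes and 0 members were called.

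The 2 control groups also differed. In Anti against Ctrl, 61 of the 93 members tested fell, 4 rose and 28 were not called, where 11.5% of the 29714 genes tested were higher and 12.2% lower, and where 25.5% of the protein-coding genes averaging at least 100 counts were higher and 29.1% lower. At that level 60 of 86 members fell and 4 rose, with a median of -0.16 and a range from -0.34 to 0.41, against -0.01 over the protein-coding genes. The 2-fold rule called 1.06% of all genes and 1 member, ATP5EP2, a retrocopy of the epsilon subunit gene, with 10, 7 and 4 counts in Ctrl and 0, 2 and 2 in Anti. Its log2 fold change of -2.33 (SE 0.83, edgeR adjusted p = 0.024) rests on these few counts, and its adjusted p became 0.15 without Anti replicate 1, 0.13 without Ctrl replicate 1 and 0.073 without Ctrl replicate 2.

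**Figure D2:**
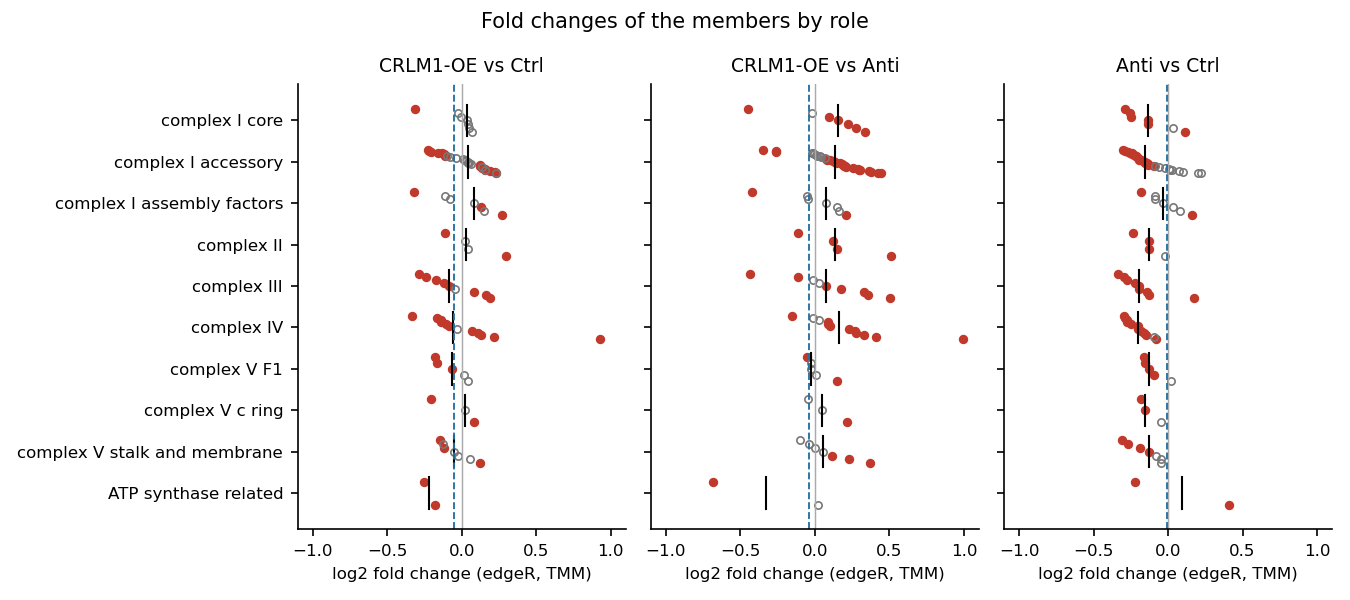
Log2 fold change of each member averaging at least 50 counts in the 3 comparisons (edgeR, TMM factors), by role in its complex; filled points passed the adjusted p of 0.05, open points did not, black bars are medians of a role, and the dashed line is the median of protein-coding genes averaging at least 100 counts. Points for Anti against Ctrl lie mostly below 0 and those for CRLM1-OE against Anti mostly above it, whereas the points for CRLM1-OE against Ctrl scatter on both sides, and with total counts in place of TMM most of these lie above 0.

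The scaling changed how many of these small differences are called. With total counts in place of TMM factors, the median of the protein-coding genes averaging at least 100 counts moved from -0.05 to 0.09 in CRLM1-OE against Ctrl, from -0.04 to 0.02 in CRLM1-OE against Anti and from -0.01 to 0.10 in Anti against Ctrl. The member counts then became 52 higher and 5 lower, 56 higher and 9 lower, and 13 higher and 35 lower, in the same order. The calls among all genes shifted too, to 6649 higher and 2951 lower of 29846, 5957 and 4814 of 30183, and 5500 and 2029 of 29714. Relative to the median of those protein-coding genes, the 86 members of that level lay at 0.06 in CRLM1-OE against Ctrl, 0.14 in CRLM1-OE against Anti and -0.15 in Anti against Ctrl under both scalings. Above that median lay 50, 71 and 15 of the 86 members. Total counts also left some named members without a call, with no change of sign. These were NDUFV3, NDUFAF6, UQCR11, UQCRC1, COX6B1, ATP5S, ATP5A1, ATP5B and ATP5F1 in CRLM1-OE against Ctrl, SDHC in CRLM1-OE against Anti, and 13 members in Anti against Ctrl, among them NDUFB3, NDUFAF2, NDUFS3, SDHB, SDHD, UQCRC2, UQCRFS1, COX5A, COX7B, COX7C, ATP5G3 and ATP5F1. By complex, over the genes of that level, total counts gave 30 higher and 2 lower for complex I in CRLM1-OE against Ctrl (11 and 10 with TMM), 3 and 0 for complex II (1 and 1), 5 and 1 for complex III (3 and 5), 5 and 1 for complex IV (4 and 6), and 8 and 1 for complex V (2 and 8). For Anti against Ctrl they gave 9 higher and 13 lower for complex I (2 and 27), 1 and 1 for complex II (0 and 3), 1 and 6 for complex III (1 and 8), 0 and 7 for complex IV (0 and 11), and 2 and 7 for complex V (1 and 11).

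The complexes were then followed sample by sample. Relative to the Ctrl mean, the median TMM-scaled level of the 45 complex I genes with enough counts lay at 0.01, 0.02 and 0.05 on the log2 scale in the CRLM1-OE samples, at -0.03, 0.02 and 0.02 in Ctrl and at -0.12, -0.12 and -0.13 in Anti. For the 11 genes of complex IV the values were -0.09, -0.11 and -0.06 in CRLM1-OE, -0.06, 0.03 and 0.02 in Ctrl, and -0.19, -0.18 and -0.17 in Anti. The Anti samples lay below every sample of the other groups in both complexes, and CRLM1-OE lay below Ctrl in complex IV alone of these 2. That last margin was very narrow, with the highest CRLM1-OE sample at -0.063 and the lowest Ctrl sample at -0.059. With total counts the median fold change of CRLM1-OE against Ctrl changed sign for complex III (from -0.08 to 0.06), complex IV (from -0.09 to 0.05) and complex V (from -0.06 to 0.08).

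**Figure D3:**
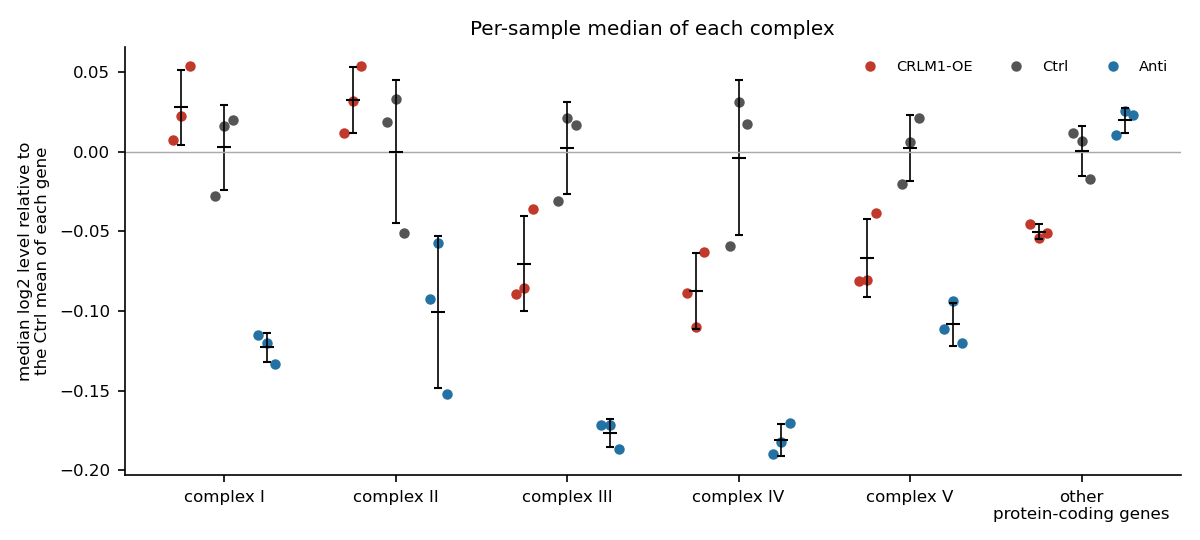
Median log2 level of the genes of each complex, and of the other protein-coding genes, relative to the Ctrl mean of each gene, with a point per sample and the mean ± SD of each group, from TMM-scaled CPM of genes averaging at least 100 counts. The Anti samples lie lowest in every complex but not among the other protein-coding genes, while the place of CRLM1-OE relative to Ctrl differs among the complexes and turns positive for complexes III, IV and V under total counts.

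The calls in each complex are set beside those of the protein-coding genes averaging at least 100 counts. Of these genes 28.9% were called higher and 39.8% lower in CRLM1-OE against Ctrl, and 33.7% and 41.1% against Anti. In Anti against Ctrl 25.5% were higher and 29.1% lower. Complex I is the entry point of electrons from NADH. Of its 7 core subunits, which carry the flavin and the iron-sulfur clusters, 1 fell and 0 rose in CRLM1-OE against Ctrl, 5 rose and 1 fell against Anti, and 5 fell and 1 rose in Anti against Ctrl. The exception in each was NDUFS1, the largest subunit, encoded on chromosome 2 (positions 206114817 to 206159509, minus strand, GRCh38). NDUFS1 stood at 67.9, 64.8 and 68.6 CPM in CRLM1-OE, 85.2, 85.2 and 79.6 in Ctrl, with 91.3, 93.2 and 90.8 in Anti. The 3 groups did not overlap, and CRLM1-OE was the lowest. Its log2 fold change was -0.31 (SE 0.03, edgeR adjusted p = 3.2e-18) against Ctrl, -0.45 (SE 0.03, adjusted p = 1.4e-43) against Anti, and 0.11 (SE 0.03, adjusted p = 0.0029) in Anti against Ctrl. NDUFS7 and NDUFS8, which hold iron-sulfur clusters near the quinone site, and NDUFV1, which binds the flavin and NADH, went the other way, with log2 fold changes of 0.34, 0.22 and 0.28 over Anti and of -0.29, -0.25 and -0.26 in Anti against Ctrl. NDUFS3 made the same moves at a smaller size, 0.16 over Anti and -0.13 in Anti against Ctrl. NDUFV2 passed the test in no comparison, with mean levels of 70.4, 68.9 and 71.5 CPM in CRLM1-OE, Ctrl and Anti.

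The 32 entries listed as accessory subunits of complex I, which surround this core, include NDUFA4, placed in complex IV by later work. They also include the second NDUFA7 entry, with a mean count of 0.11. NDUFA4 was called only in CRLM1-OE against Anti, higher by 0.10. In CRLM1-OE 9 of the 32 rose and 8 fell against Ctrl (28.1% and 25%), and 20 rose and 3 fell against Anti. In Anti 21 of the 31 tested fell and 0 rose against Ctrl. NDUFB3, a small subunit of the membrane arm, had 31.6, 30.9 and 34 CPM in CRLM1-OE, 27.9, 28.1 and 26.5 in Ctrl, with 23.3, 24.5 and 23.2 in Anti, which are 3 separate ranges. It was higher by 0.23 over Ctrl and by 0.44 over Anti, and lower by a log2 fold change of -0.24 in Anti against Ctrl. NDUFA12 moved alike, with 0.16, 0.42 and -0.29 in the same order. NDUFS5 rose by 0.14 over Ctrl and by 0.21 over Anti, and its log2 fold change of -0.09 in Anti against Ctrl became 0.01 with total counts. The abundant entry named NDUFA7 rose by 0.23 and 0.29 in CRLM1-OE, and its mean levels in Ctrl and Anti, 32.6 and 31.3 CPM, were not called different, and in the newer annotation this entry is a readthrough gene that overlaps CD320. NDUFA2 rose by 0.20 over Anti and fell by 0.30 on the log2 scale in Anti against Ctrl, whereas its mean levels in CRLM1-OE and Ctrl were 49.2 and 51.9 CPM without a call. NDUFV3 and NDUFA11 were members that fell: NDUFV3 had log2 fold changes of -0.23 against Ctrl and -0.26 against Anti, and NDUFA11 had -0.35 against Anti.

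Of the 7 complex I assembly factors named NDUFAF, which act during the building of the complex and are absent from its finished form, 2 rose and 1 fell against Ctrl, 1 rose and 1 fell against Anti, and 1 rose and 1 fell in Anti against Ctrl. NDUFAF1 was at 13.9, 12.7 and 11.9 CPM in CRLM1-OE, 10.9, 9.97 and 11.1 in Ctrl, with 11.6, 11.7 and 9.98 in Anti. Its rise of 0.27 over Ctrl (SE 0.08, edgeR adjusted p = 0.0017) and of 0.21 over Anti (SE 0.07, edgeR adjusted p = 0.014) left every CRLM1-OE sample above every control sample. Both calls were lost without CRLM1-OE replicate 1 (edgeR adjusted p = 0.066 against Ctrl and 0.23 against Anti), and that against Anti was also lost under DESeq2, under limma and, at 0.14, without Anti replicate 3. NDUFAF6 fell, with log2 fold changes of -0.32 against Ctrl and -0.42 against Anti. NDUFAF3 rose by 0.13 in CRLM1-OE and by 0.16 in Anti, each against Ctrl, and NDUFAF2 fell only in Anti against Ctrl among the comparisons run, with a log2 fold change of -0.18.

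Complex II, succinate dehydrogenase, belongs to both the respiratory chain and the tricarboxylic acid cycle and has no subunit from mitochondrial DNA. SDHA, its catalytic flavoprotein, lies on chromosome 5 (positions 218303 to 257082, plus strand, GRCh38). It stood at 142, 132 and 135 CPM in CRLM1-OE, 111, 114 and 108 in Ctrl, with 95.4, 98.1 and 94.5 in Anti. These 3 ranges were well apart, and CRLM1-OE was the highest. SDHA had the highest fold change of any member averaging at least 100 counts in both CRLM1-OE comparisons, 0.30 over Ctrl (SE 0.03, edgeR adjusted p = 1.3e-22) and 0.51 over Anti (SE 0.03, adjusted p = 1.4e-73), and fell by 0.23 on the log2 scale in Anti against Ctrl (SE 0.03, adjusted p = 6e-13). The other subunits moved less. SDHB and SDHD rose by 0.12 and 0.15 over Anti and had log2 fold changes of -0.13 each in Anti against Ctrl, and their mean levels in CRLM1-OE and Ctrl, 128 and 126 CPM for SDHB and 70.8 and 68.7 CPM for SDHD, were not called different. SDHC had log2 fold changes of -0.11 against Ctrl and -0.11 against Anti, the first of which turned to 0.03 with total counts.

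In complex III, which passes electrons from ubiquinol to cytochrome c, 3 of 10 genes rose and 5 fell in CRLM1-OE against Ctrl. Against Anti 5 rose and 2 fell, and in Anti against Ctrl 8 fell and 1 rose. Protein-coding genes averaging at least 100 counts had 28.9% higher and 39.8% lower, 33.7% and 41.1%, and 25.5% and 29.1%, in the same order. UQCR10, a small subunit encoded on chromosome 22 (positions 29767369 to 29770413, plus strand, GRCh38), had 98, 93.2 and 99.1 CPM in CRLM1-OE, 81.8, 86.4 and 87.4 in Ctrl, with 70, 69.8 and 65.4 in Anti. Its log2 fold changes were 0.19 (SE 0.03, edgeR adjusted p = 5.2e-08) over Ctrl, 0.50 (SE 0.03, adjusted p = 1.5e-56) over Anti and -0.34 (SE 0.03, adjusted p = 1.3e-21) in Anti against Ctrl, the last being the lowest of the members averaging at least 100 counts. CYC1, the cytochrome c1 that hands electrons on, and UQCRQ moved in the same directions, with 0.08, 0.36 and -0.30 for CYC1 and 0.16, 0.33 and -0.19 for UQCRQ. UQCRH went the opposite way in CRLM1-OE, at 242, 229 and 246 CPM against 284, 296 and 295 in Ctrl and 259, 259 and 260 in Anti. Its samples were below those of both controls, with log2 fold changes of -0.29 and -0.11, and Anti was itself lower than Ctrl by -0.19. The core proteins UQCRC1 and UQCRC2, which form its part on the matrix side, fell against Ctrl with values of -0.18 and -0.12, but with total counts UQCRC1 was at -0.03 without a call (edgeR adjusted p = 0.32) and UQCRC2 at 0.02, and their means against Anti, 284 and 280 CPM for UQCRC1 and 202 and 204 CPM for UQCRC2, were not called different. Their values for Anti against Ctrl were -0.22 and -0.13. UQCRFS1, the Rieske iron-sulfur protein, rose by 0.07 over Anti and had -0.14 in Anti against Ctrl. UQCR11 was the member of this complex that rose in Anti, by 0.18 over Ctrl (SE 0.07, edgeR adjusted p = 0.04). That value ranged from 0.08 to 0.28 over the alternative fits and was not called in all of them. In CRLM1-OE UQCR11 fell, with -0.24 against Ctrl and -0.43 against Anti.

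Complex IV, cytochrome c oxidase, reduces oxygen. Of the 16 genes named for it, 5 rose (31.25%) and 6 fell (37.5%) in CRLM1-OE against Ctrl. Both shares were near the 28.9% and 39.8% of protein-coding genes averaging at least 100 counts. Against Anti 9 rose and 1 fell, where 33.7% of those protein-coding genes rose and 41.1% fell. In Anti against Ctrl 11 fell and 0 rose, where 29.1% of them fell and 25.5% rose. Each of the 11 complex IV genes averaging at least 100 counts was thus called lower in Anti than in Ctrl. COX8A had 304, 308 and 319 CPM in CRLM1-OE, 274, 291 and 285 in Ctrl, with 233, 238 and 233 in Anti. It rose by 0.13 over Ctrl (SE 0.02, edgeR adjusted p = 2e-07) and by 0.41 over Anti (SE 0.02, adjusted p = 5.5e-77), and fell by 0.30 on the log2 scale in Anti against Ctrl (SE 0.02, adjusted p = 1.9e-32). COX6A1, COX6C and COX7B rose against both controls, by 0.07, 0.21 and 0.11 over Ctrl and by 0.33, 0.27 and 0.27 over Anti. Their values in Anti against Ctrl were -0.28, -0.08 and -0.18, of which that of COX6C turned to 0.02 with total counts.

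COX7A2L, which takes part in joining complexes III and IV into supercomplexes, was the 1 gene of complex IV that fell against both controls. It was at 149, 154 and 155 CPM in CRLM1-OE, 194, 194 and 189 in Ctrl, with 171, 167 and 172 in Anti, again 3 separate ranges. The log2 fold changes were -0.33 (SE 0.03, edgeR adjusted p = 8.1e-34) against Ctrl, the lowest of the members averaging at least 100 counts in that comparison, -0.15 (SE 0.02, edgeR adjusted p = 3e-09) against Anti, and -0.20 (SE 0.03, edgeR adjusted p = 3.5e-13) in Anti against Ctrl. The structural subunits COX4I1, COX5A, COX5B and COX7C also fell against Ctrl by TMM, with -0.14, -0.11, -0.09 and -0.14, and all of these turned positive with total counts, at 0.01, 0.04, 0.05 and 0.00. Over Anti, COX4I1 and COX5B rose by 0.09 each, whereas COX5A and COX7C, at means of 145 and 142 CPM and of 267 and 269 CPM in CRLM1-OE and Anti, were not called. COX7A2 rose by 0.23 over Anti and had -0.28 in Anti against Ctrl, and its means of 203 CPM in CRLM1-OE and 207 CPM in Ctrl were not called different.

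The subunit COX6B, which lies where the complex IV dimer is joined, has a housekeeping gene, COX6B1, and a second gene known from testis, COX6B2, and their values against Ctrl differed, a contrast between genes that was not itself tested. COX6B2 lies on chromosome 19 (positions 55349306 to 55354719, minus strand, GRCh38). It had 143, 120 and 128 counts in CRLM1-OE, 71, 63 and 57 in Ctrl, with 75, 55 and 58 in Anti. In CPM these were 3.26, 3.42 and 3.23, then 1.68, 1.84 and 1.71, then 1.85, 1.46 and 1.65, so that CRLM1-OE was apart from both controls and the controls overlapped. The log2 fold change was 0.92 (SE 0.16, edgeR adjusted p = 3e-08) over Ctrl and 0.99 (SE 0.16, edgeR adjusted p = 1.4e-09) over Anti, both just short of 2-fold. In Anti against Ctrl it was -0.09 (SE 0.19, edgeR adjusted p = 0.79), and 0.01 with total counts. COX6B1 had 154, 156 and 166 CPM in CRLM1-OE, 170, 183 and 181 in Ctrl, with 150, 151 and 145 in Anti. It fell by 0.16 on the log2 scale against Ctrl, which became -0.02 without a call under total counts (edgeR adjusted p = 0.54), rose by 0.10 over Anti, and fell by 0.29 in Anti against Ctrl. Per length, COX6B2 remained far below COX6B1 in each group, at 1.05 ± 0.0436 and 155 ± 5.19 FPKM in CRLM1-OE.

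**Figure D4:**
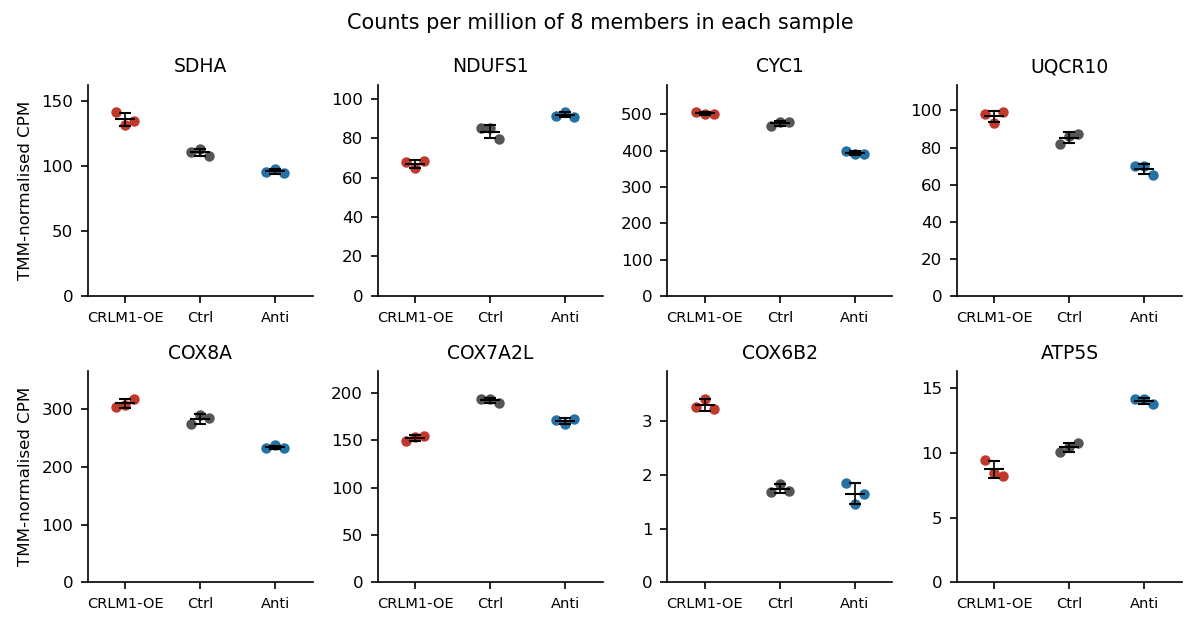
TMM-scaled CPM of 8 members in each of the 9 samples, on axes from 0, with the mean ± SD of each group. SDHA, CYC1, UQCR10 and COX8A are highest in CRLM1-OE and lowest in Anti, NDUFS1 and ATP5S run the other way, COX7A2L is highest in Ctrl, and COX6B2 is higher in CRLM1-OE than in both controls.

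Complex V makes ATP. Of the 18 genes listed under it, 2 rose and 8 fell in CRLM1-OE against Ctrl, and 5 rose and 2 fell against Anti. In Anti against Ctrl 12 fell and 1 rose. Shares among protein-coding genes averaging at least 100 counts were 28.9% higher and 39.8% lower, 33.7% and 41.1%, and 25.5% and 29.1%. The 18 include the retrocopy ATP5EP2 and 2 related proteins that are not subunits, ATP5S and ATP5SL. These 2 were among the 8, ATP5S was among the 2 that fell against Anti, and ATP5SL and ATP5EP2 were among the 12. ATP5B was at 1017, 982 and 995 CPM in CRLM1-OE, 1142, 1131 and 1124 in Ctrl, with 1036, 1041 and 1030 in Anti. It fell with -0.18 against Ctrl (SE 0.02, edgeR adjusted p = 5.1e-21), which became -0.04 without a call under total counts, and its value of -0.05 against Anti (SE 0.02, edgeR adjusted p = 0.0077) turned to 0.01 with total counts. Anti had -0.16 against Ctrl. ATP5A1, the alpha subunit that alternates with beta in the catalytic head, had -0.17 against Ctrl, which became -0.02 without a call under total counts (edgeR adjusted p = 0.46), and -0.16 in Anti against Ctrl, and its means in CRLM1-OE and Anti, 422 and 430 CPM, were not called different. ATP5D, the delta subunit of the head, had -0.06 against Ctrl and -0.09 in Anti against Ctrl, values that turned to 0.08 and 0.01 with total counts.

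The ring of c subunits, whose rotation is driven by protons, is encoded by 3 genes that give the same mature protein. They did not move together. ATP5G2 fell with -0.20 against Ctrl, ATP5G3 rose by 0.08 over Ctrl and by 0.21 over Anti, and ATP5G1, at means of 106, 105 and 103 CPM in CRLM1-OE, Ctrl and Anti, was called in no comparison. ATP5G2 and ATP5G3 had -0.18 and -0.15 in Anti against Ctrl. Among the stalk and membrane subunits, ATP5F1 and ATP5L fell against Ctrl with -0.14 and -0.12, but with total counts ATP5F1 was at -0.00085 without a call and ATP5L at 0.03. They had -0.13 and -0.19 in Anti against Ctrl, of which that of ATP5F1 became -0.02 and was not called with total counts. ATP5J2 and ATP5I rose by 0.23 and 0.37 over Anti and had -0.31 and -0.27 in Anti against Ctrl. The spread of ATP5I was wide, with 38.3, 41.5 and 51.6 CPM in CRLM1-OE, 33.2, 42.3 and 45.8 in Ctrl, with 35.4, 35.5 and 30.5 in Anti. Its rise of 0.12 over Ctrl (SE 0.04, edgeR adjusted p = 0.015) came with overlapping samples and was -0.01 without CRLM1-OE replicate 3.

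ATP5S, named after a coupling factor of the ATP synthase and listed as DMAC2L in the newer annotation, was the gene listed for complex V that rose in Anti against Ctrl. It stood at 9.44, 8.44 and 8.23 CPM in CRLM1-OE, 10, 10.4 and 10.8 in Ctrl, with 14.1, 14.2 and 13.7 in Anti. The groups did not overlap, with Anti the highest. The log2 fold changes were -0.25 (SE 0.09, edgeR adjusted p = 0.011) against Ctrl, -0.68 (SE 0.08, edgeR adjusted p = 1.5e-17) against Anti, and 0.41 (SE 0.08, edgeR adjusted p = 1.6e-06) in Anti against Ctrl. With total counts the first was -0.11 and no longer called (edgeR adjusted p = 0.39). The other 2 were the lowest and the highest of the members averaging at least 100 counts in those comparisons. ATP5SL, its paralog, had -0.18 against Ctrl and -0.22 in Anti against Ctrl.

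The members differed in the length of their annotated exons, and the fold changes varied with it. This length covers all annotated isoforms of a gene and can exceed that of its main transcript. The 86 members averaging at least 100 counts had a median length of 1902 bp, as implied by the ratio of counts to FPKM, against 4074 bp for the other protein-coding genes of that level. In Anti against Ctrl, the median log2 fold change of the 21 members under 1000 bp was -0.20, and it was -0.17, -0.16, -0.13 and -0.05 in successive bins up to 1500 bp, 2500 bp, 4000 bp and beyond, which held 12, 22, 17 and 14 members. The other protein-coding genes in the same bins, 204 in the shortest, had -0.17, -0.14, -0.10, -0.04 and 0.05. Both series went from lower to higher with length, and the members lay below the other genes in each of the 5 bins. In CRLM1-OE against Anti the members had 0.22, 0.13, 0.08, 0.07 and -0.01, and the other genes 0.02, 0.02, 0.00, -0.03 and -0.08. In CRLM1-OE against Ctrl the members had 0.04, 0.02, -0.01, -0.02 and -0.11, and the other genes -0.09, -0.10, -0.08, -0.05 and -0.03. By level, Anti against Ctrl gave the members medians of 0.05 below a mean count of 1000 (14 members), -0.17 up to 3000 (24), -0.16 up to 10000 (38) and -0.20 above (10), where the other protein-coding genes had 0.05, -0.02, -0.08 and -0.16. The part of length and level in the members' values was not tested.

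**Figure D5:**
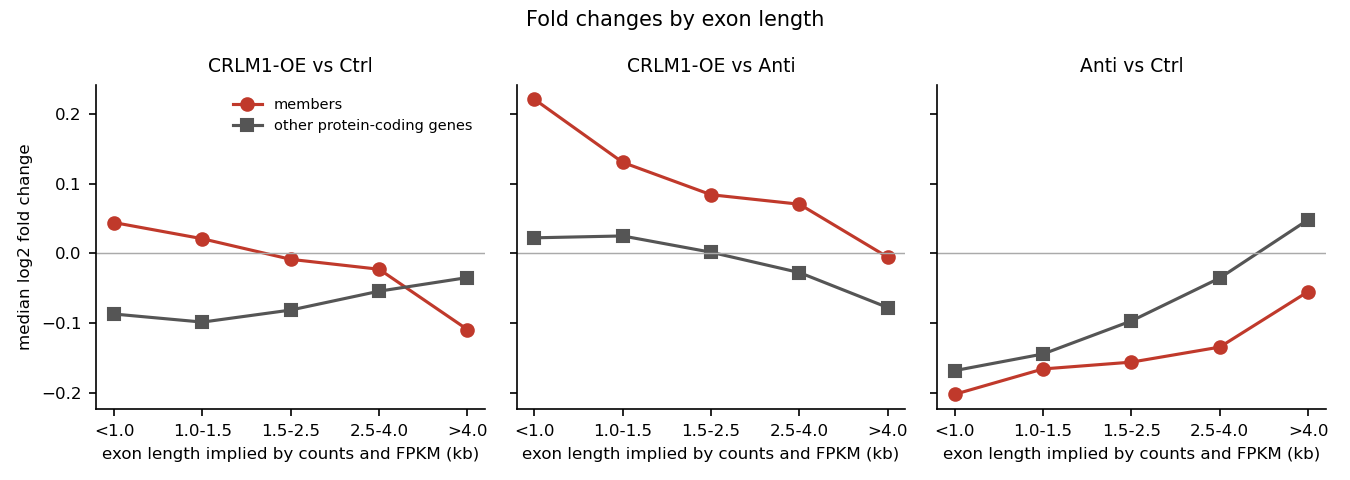
Median log2 fold change (TMM factors) in bins of exon length in kb, as implied by counts and FPKM, for the members and for the other protein-coding genes averaging at least 100 counts. In Anti against Ctrl both lines rise with length, and in CRLM1-OE against Anti the members lie above the other genes in every bin.

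Since the nuclear subunits are paired in each complex with subunits encoded by mitochondrial DNA, the 13 mitochondrial messenger RNAs were examined next. In CRLM1-OE 9 of the 13 fell and 4 rose against Ctrl (median -0.30 on the log2 scale), and 10 fell and 2 rose against Anti, with a median of -0.39. In Anti against Ctrl 9 rose and 3 fell, with a median of 0.08. Of the protein-coding genes averaging at least 100 counts, 28.9% were higher and 39.8% lower, 33.7% and 41.1%, and 25.5% and 29.1%, in the same order. With total counts the splits of the 13 were 4 higher and 9 lower, 3 and 10, and 11 and 0. The lowest values in CRLM1-OE were -0.56 for MT-ATP8 against Ctrl and -0.62 for MT-CYB against Anti. MT-ND6, the gene on the other strand of the mitochondrial genome, was the highest in both, at 0.53 and 0.27. MT-ND1 was close to it, at 0.52 and 0.23. The FPKM of MT-ND6 was widely spread, at 182 ± 36.7 in CRLM1-OE and 117 ± 30.3 in Ctrl, and the strand setting of the counting is not given. For complex IV, MT-CO1, MT-CO2 and MT-CO3 had -0.38, -0.39 and -0.29 against Ctrl, while the nuclear genes of that complex had a median of -0.09.

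Factors that assemble complexes II to V without being part of them spread more widely than the members but less than other genes. In CRLM1-OE against Ctrl the SD of their log2 fold changes was 0.23, against 0.15 over the 86 members. It was 0.39 over the protein-coding genes averaging at least 100 counts. The 7 NDUFAF factors, which are counted among the members, had 0.20. Of the 35 assembly factors of complexes II to V, 5 rose (14.3%) and 16 fell (45.7%) in CRLM1-OE against Ctrl (median -0.12). Against Anti 12 rose (34.3%) and 15 fell (42.9%), with a median of 0.00. In Anti against Ctrl 8 rose (22.9%) and 11 fell (31.4%), with a median of -0.06. Shares of protein-coding genes averaging at least 100 counts were 28.9% higher and 39.8% lower, 33.7% and 41.1%, and 25.5% and 29.1%. The shares of the assembly factors that fell were near those. With total counts, 14 of the 35 factors were higher and 7 lower, 13 higher and 13 lower, and 11 higher and 4 lower, in the same order. LYRM7, a chaperone of the Rieske protein, was the lowest in both CRLM1-OE comparisons, with -0.54 against Ctrl and -1.01 against Anti, and the highest in Anti against Ctrl, at 0.44. COX17, which delivers copper to complex IV, rose by 0.33 over Ctrl and by 0.68 over Anti, and SDHAF4, which protects the flavin-loaded SDHA, rose by 0.45 and 0.65. ATPAF1, an assembly factor of the catalytic head of complex V, fell with -0.40 and -0.71. Of 7 other complex I assembly genes, 1 rose and 4 fell against Ctrl, 1 rose and 3 fell against Anti, and 2 rose and 1 fell in Anti against Ctrl. ACAD9 among them had -0.48 against Ctrl and -0.84 against Anti.

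The 12 genes of the mobile carriers, cytochrome c and the synthesis of ubiquinone, had 2 higher and 4 lower in CRLM1-OE against Ctrl. They had 2 higher and 6 lower against Anti, and 2 higher and 1 lower in Anti against Ctrl. With total counts these splits were 3 and 2, 3 and 4, and 6 and 1. By TMM, the protein-coding genes averaging at least 100 counts had 28.9% higher and 39.8% lower, 33.7% and 41.1%, and 25.5% and 29.1%. CYCS, cytochrome c itself, fell with -0.22 and -0.32 in the CRLM1-OE comparisons, COQ2 fell with -0.44 and -0.35, and COQ3 rose by 0.55 and 0.63. Of the 13 genes of the tricarboxylic acid cycle, 1 rose and 5 fell against Ctrl, 7 rose and 2 fell against Anti, and 8 fell and 0 rose in Anti against Ctrl, whereas total counts gave 8 higher and 2 lower, 8 and 2, and 3 and 4. DLD, the shared dihydrolipoamide dehydrogenase, had the lowest values of that list in CRLM1-OE, -0.58 and -0.67. CS, citrate synthase, rose by 0.18 over Anti and had -0.26 in Anti against Ctrl.

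Among 13 regulators of respiratory gene expression, 7 rose and 2 fell in CRLM1-OE against Ctrl, 6 rose and 5 fell against Anti, and 3 rose and 2 fell in Anti against Ctrl. Of the protein-coding genes averaging at least 100 counts, 28.9% were higher and 39.8% lower, 33.7% and 41.1%, and 25.5% and 29.1%, in the same order. With total counts the splits were 8 higher and 0 lower, 7 and 2, and 5 and 0. NRF1, a transcription factor with binding sites in the promoters of many respiratory genes, rose by 0.32 over Ctrl and by 0.43 over Anti. PPARGC1B, a coactivator of the same factors, rose by 0.76 and 0.66, and POLRMT and TFB1M, the mitochondrial RNA polymerase and an rRNA methyltransferase, rose by 0.43 and 0.46 over Ctrl and by 0.51 and 0.56 over Anti. GABPA, the DNA-binding subunit of the ETS-family factor GABP, fell with -0.25 and -0.19, whereas GABPB1 rose by 0.23 and 0.28. ESRRA fell against both controls, with -0.16 and -0.25. YY1 rose by 0.20 over Ctrl, and its value of 0.03 over Anti was not called. TFAM, which packages mitochondrial DNA, had -0.38 against Anti and 0.28 in Anti against Ctrl, and TFB2M had -0.18 against Anti.

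As these factors bind promoters, the RefSeq promoter windows (GRCh38.p14, 250 bases before to 50 after the start) of the members were searched on both strands for fixed letters, and 73 of the 94 members had a window. The NRF1 letters GCATGCGC were held by 16 (21.9%), against 4.89% of 15842 protein-coding genes, the ETS letters CCGGAAG by 21 (28.8%) against 16.5%, the YY1 letters AAGATGGC by 12 (16.4%) against 4.66%, and the NF-Y letters CCAAT by 27 (37%) against 42.1%. At least 1 of the NRF1, ETS and YY1 words was found in 38 members (52.1%) and in 23.4% of the protein-coding genes. These are counts of letters in a window and not of sites in use. The 15842 genes were taken at any level of expression, silent ones included, and so were not matched to the members in level. The windows of the COX6B pair are shown because their fold changes are set side by side above, and those of COX6A1 and SDHB because they hold several of the words. Capitals mark the searched letters on either strand.
COX6B1: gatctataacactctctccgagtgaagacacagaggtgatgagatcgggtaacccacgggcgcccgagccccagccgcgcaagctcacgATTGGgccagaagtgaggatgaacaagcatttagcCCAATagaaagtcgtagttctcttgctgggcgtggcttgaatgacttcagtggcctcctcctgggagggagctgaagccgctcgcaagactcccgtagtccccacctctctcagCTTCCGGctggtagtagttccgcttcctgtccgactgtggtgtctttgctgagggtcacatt
COX6B2: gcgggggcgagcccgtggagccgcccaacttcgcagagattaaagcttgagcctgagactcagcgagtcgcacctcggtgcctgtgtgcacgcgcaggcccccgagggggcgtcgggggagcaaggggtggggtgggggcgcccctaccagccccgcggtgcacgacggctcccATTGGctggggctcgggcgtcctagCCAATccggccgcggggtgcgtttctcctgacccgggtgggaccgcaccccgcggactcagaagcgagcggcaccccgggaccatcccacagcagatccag
COX6A1: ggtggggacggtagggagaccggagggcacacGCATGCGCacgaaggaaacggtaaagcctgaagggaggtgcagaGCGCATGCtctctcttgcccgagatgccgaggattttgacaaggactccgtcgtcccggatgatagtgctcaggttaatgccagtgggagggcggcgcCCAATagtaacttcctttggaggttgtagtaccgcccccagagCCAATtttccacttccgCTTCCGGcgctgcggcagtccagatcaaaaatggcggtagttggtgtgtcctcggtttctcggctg
SDHB: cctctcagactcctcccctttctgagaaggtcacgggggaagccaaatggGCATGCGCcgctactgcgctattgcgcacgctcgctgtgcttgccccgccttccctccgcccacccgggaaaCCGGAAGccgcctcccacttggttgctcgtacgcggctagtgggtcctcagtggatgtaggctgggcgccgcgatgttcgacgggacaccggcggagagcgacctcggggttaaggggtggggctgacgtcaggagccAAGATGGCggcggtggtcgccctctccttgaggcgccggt
The COX6B1 window (chr19:35648073-35648372, plus strand) holds the ETS word and CCAAT at 2 places. That of COX6B2 (chr19:55354670-55354969, minus strand) holds CCAAT at 2 places and none of the other 3 words. In COX6A1 (chr12:120437863-120438162, plus strand) the NRF1 word occurs at 2 places, with the ETS word and CCAAT at 2 places, and in SDHB (chr1:17053983-17054282, minus strand) the NRF1, ETS and YY1 words occur once each.

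Members with and without the words were then set side by side, over those averaging at least 100 counts. The 37 members with an NRF1, ETS or YY1 word had median log2 fold changes of 0.01 in CRLM1-OE against Ctrl, 0.09 in CRLM1-OE against Anti and -0.16 in Anti against Ctrl. The 32 without had 0.03, 0.16 and -0.18. Of the 38 and 35 members with a window in each class, 6 and 10 rose and 14 and 8 fell in CRLM1-OE against Ctrl. In CRLM1-OE against Anti 19 and 18 rose and 3 and 4 fell, and 26 and 23 fell in Anti against Ctrl. Of the protein-coding genes averaging at least 100 counts, 28.9% rose and 39.8% fell in the first, 33.7% and 41.1% in the second, and 29.1% fell in the third. These calls use TMM factors, and the difference between the classes was not tested.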

How the data were processed

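RNA-seq of polyadenylated RNA was analysed in 9 samples, 3 each of CRLM1-OE, Ctrl and Anti, grouped by their labels. Per the study's methods the authors trimmed the reads, aligned them with TopHat2 to GRCh38 and kept uniquely mapped reads. They deposited 2 tables, one of raw read counts per gene and one of FPKM, both limited to genes they call expressed by a criterion not given in the sources used here. The deposited counts were not normalized, and the deposited FPKM values are scaled by exon length and by library size. A read that maps to several copies was not counted, which can lower genes with retrocopies.

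The counts were fitted with edgeR 4.0.16 (glmQLFit and glmQLFTest, R 4.3.3), with TMM factors over the 6 samples of each comparison, genes with at least 1 count, and a Benjamini-Hochberg adjustment over all genes. The study's own rule adds a change of at least 2-fold. The fits were tested on simulated data. Alternatives were DESeq2 1.42.0, RLE factors, total counts, all 9 samples in a fit, 2 count filters, limma 3.58.1 on log2(FPKM + 0.1) and log2(FPKM + 1), a replicate block, and leaving out each sample. A count of 3 was taken as the floor, 0.0674 to 0.0901 CPM. Gene positions come from Gencode 44 (GRCh38), matched by gene identifier. Exon length was implied by the ratio of counts to FPKM.

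The members, the other gene lists and the tests were chosen with earlier results of these data known. Named members were the core and catalytic subunits, the families of paralogs, ATP5F1, members past 2-fold, the highest and lowest of each complex by FPKM, and, per comparison and complex, the 2 highest and the 2 lowest by fold change among those called averaging at least 100 counts, and from each other list the highest and the lowest called. The complex I assembly factors, ATP5SL, ATPAF1, CYCS, NRF1, POLRMT, TFB1M, TFB2M, ESRRA, GABPB1, YY1, MT-CO1, MT-CO2 and MT-CO3 were named after their values were seen. The same holds for the cell type markers given with a value of their own. An item that the rule names is not reported here. COX6A2 and ATP5L2 have no row and were not analysed here. As p-values measure only the spread between these samples, they do not cover other transfections or cell lines.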

Additional observations from a re-analysis of the deposited data

How the results depend on the processing

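The choice of scaling moved the results most. With limma on the log2 scale of FPKM, after adding 0.1 and then 1, CRLM1-OE against Ctrl gave 40 members higher and 5 lower under both, a median of 0.13 and 0.10, and 2683 and 2666 of all genes lower, and SDHC (0.0063 and 0.0055), COX5A (0.0082 and 0.0081), COX5B (0.0279 and 0.0278) and ATP5D (0.050 under both) turned positive. CRLM1-OE against Anti gave 7 lower under both and a median of 0.14 with 0.1 added. Anti against Ctrl gave 7 higher and 34 lower, medians of -0.063 and -0.058, 1770 and 1753 of all genes lower, and COX6C at 0.0068 and 0.0066, with 0 members past 2-fold when 1 was added. With total counts, CRLM1-OE against Ctrl gave 52 higher, 5 lower, 1 past 2-fold, a median of 0.16 and 2951 of all genes lower, and SDHC (0.031), UQCRC2 (0.021), COX4I1 (0.0057), COX5A (0.035), COX5B (0.055), COX7C (0.0041), ATP5D (0.077) and ATP5L (0.026) turned positive. CRLM1-OE against Anti then had 1 past 2-fold, a median of 0.17 and ATP5B at 0.0094, and Anti against Ctrl had 13 higher and 35 lower, 5500 of all genes higher and 2029 lower, a median of -0.050, and NDUFS5 (0.012), COX6B2 (0.012), COX6C (0.023) and ATP5D (0.011) positive. COX6B2 lay so near to 2-fold that 1 member passed that rule in CRLM1-OE against Anti under DESeq2, RLE factors, both count filters and total counts, and the count of Anti against Ctrl was 0 under DESeq2, both count filters and the replicate block, since ATP5EP2 was filtered out, had no adjusted p or, with the block, had an adjusted p of 0.069. The cause of the other changes was not tested.

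Leaving out 1 sample at a time gave 0 to 1 members past 2-fold in each comparison, and the ATP5I fold change of CRLM1-OE over Ctrl lay between -0.0088 and 0.24. The count was 1 without CRLM1-OE replicate 3 against Ctrl (ATP5EP2, lower) and, for COX6B2, without Anti replicate 1, CRLM1-OE replicate 1 or CRLM1-OE replicate 3 against Anti, and 0 without Anti replicate 1, Ctrl replicate 1 or Ctrl replicate 2 in Anti against Ctrl. The same numbers in different groups did not pair the samples, as the correlation of their deviations from the group means lay between -0.07 and 0.08 over 12941 genes. Of the named results, the fit with the replicate block changed 0 of 38 in CRLM1-OE against Ctrl, 0 of 40 against Anti, and 1 of 46 in Anti against Ctrl, that of ATP5EP2. In the order CRLM1-OE against Ctrl, CRLM1-OE against Anti and Anti against Ctrl, named calls that kept their sign but missed the threshold numbered 14, 5 and 17 with limma under either pseudocount, 9, 1 and 13 with total counts, 2, 1 and 3 with DESeq2, and 20, 9 and 19 summed over the fits that each left out a sample.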
